A study of Mus musculus with 6 samples.

Results

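The miR-379 to miR-410 cluster is a run of miRNA genes at the Mirg end of the imprinted Dlk1-Dio3 domain on mouse chromosome 12. Its members were taken by the number in their name, from miR-379 at the start of the cluster to miR-410 at its end, with every letter and arm, which gave 75 of the 1915 mature miRNAs counted, from 38 hairpin names. Small RNA was sequenced from whole brains of wild-type C57BL/6 mouse embryos at E15.5, the embryonic day on which the study compared the sexes. There were 3 female and 3 male libraries, with no treatment, and each library came from the pooled RNA of 2 to 3 embryos, so the spread between libraries is a spread between pools and not between single embryos. The labels name the tissue as whole brain, and 8 miRNAs typical of brain, miR-9 and miR-124 among them, had reads in these libraries.

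In the Dlk1-Dio3 domain the protein-coding genes Dlk1, Rtl1 and Dio3 are expressed from the paternal chromosome, and the noncoding RNAs Meg3, Rian and Mirg and the miRNAs from the maternal one. The cluster is found in placental mammals and is known for its high level in brain, where the factor Mef2 drives it in active neurons and members such as miR-134 act on dendrites and spines. Each hairpin can give a mature miRNA from its 5′ side (5p) and one from its 3′ side (3p), of which one is usually kept in Argonaute as the guide, and bases 2 to 8 of the guide, the seed, pair with target mRNAs.

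Of the 38 hairpin names, 37 could be placed on mm9, the build the authors used, within 34.7 kb at chr12:110947270-110982005. The plus strand carries 36 of them, and miR-299b is read from the minus strand opposite miR-299a. The GENCODE vM1 annotation of mm9 gives Mirg as a noncoding gene at chr12:110973191-110987665, which holds the last 8 hairpins, from miR-154 to miR-410. The miR-377 and miR-410 hairpins lie in Mirg exons and the other 6 in its introns, and the remaining 29 lie outside any other gene of that annotation. The exception is miR-496b, which the name brings in although RefSeq puts it on chromosome 19, and it had 0 reads.

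A mature sequence was found for 71 members in a RefSeq table of the GRCm38.p6 build, and each was matched to mm9 for its position. The sequences are written 5′ to 3′ with the seed in capitals, and all those printed lie on the plus strand. The first set is shown because these miRNAs passed the test for a difference between the sexes. miR-376c-3p also passed, but no mature sequence was found for it. Those printed do not share a seed with each other.
miR-369-5p, chr12:110981641-110981662: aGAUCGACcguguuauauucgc
miR-369-3p, chr12:110981676-110981696: aAUAAUACaugguugaucuuu
miR-382-3p, chr12:110972029-110972050: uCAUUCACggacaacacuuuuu
miR-154-3p, chr12:110976684-110976705: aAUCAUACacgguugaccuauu
miR-376a-5p, chr12:110961996-110962017: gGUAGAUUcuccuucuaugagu
miR-376b-3p, chr12:110961718-110961738: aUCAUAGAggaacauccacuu
miR-485-3p, chr12:110973156-110973177: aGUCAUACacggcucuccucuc

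The second set is shown because these miRNAs were among the most abundant of the cluster or are known for roles in neurons. The most abundant member, miR-487b-3p, and miR-485-5p are absent because no mature sequence was found for them.
miR-541-5p, chr12:110980632-110980656: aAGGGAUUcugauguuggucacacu
miR-411-5p, chr12:110948400-110948420: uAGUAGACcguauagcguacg
miR-379-5p, chr12:110947275-110947295: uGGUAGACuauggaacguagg
miR-323-3p, chr12:110950768-110950788: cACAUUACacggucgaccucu
miR-409-3p, chr12:110981414-110981435: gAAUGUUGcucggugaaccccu
miR-382-5p, chr12:110971991-110972012: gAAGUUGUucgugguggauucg
miR-543-3p, chr12:110955514-110955535: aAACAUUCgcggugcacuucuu
miR-410-3p, chr12:110981974-110981994: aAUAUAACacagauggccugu
miR-134-5p, chr12:110972355-110972376: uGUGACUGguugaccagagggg
miR-495-3p, chr12:110957005-110957026: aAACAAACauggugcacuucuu
miR-381-3p, chr12:110965080-110965101: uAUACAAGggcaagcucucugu
miR-329-3p, chr12:110951751-110951772: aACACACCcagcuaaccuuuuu

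The third set holds the pairs of members on the plus strand that share a seed, in the order of the pairs, since 2 miRNAs with one seed can pair with the same sites.
miR-379-3p, chr12:110947312-110947333: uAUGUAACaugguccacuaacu
miR-411-3p, chr12:110948435-110948456: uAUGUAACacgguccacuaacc
miR-379-5p, chr12:110947275-110947295: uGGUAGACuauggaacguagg
miR-1193-5p, chr12:110953926-110953945: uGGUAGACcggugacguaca
miR-1197-5p, chr12:110950571-110950591: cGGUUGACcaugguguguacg
miR-758-5p, chr12:110951033-110951053: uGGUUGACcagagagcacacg
miR-410-5p, chr12:110981939-110981959: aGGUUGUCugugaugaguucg
miR-494-5p, chr12:110953544-110953565: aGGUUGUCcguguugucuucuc
miR-376b-5p, chr12:110961681-110961702: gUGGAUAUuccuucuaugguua
miR-376c-5p, chr12:110960943-110960964: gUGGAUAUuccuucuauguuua

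The 71 sequences held 65 distinct seeds, and 6 seeds were each shared by 2 members, the sixth being that of miR-299a-3p and miR-299b-3p. The seeds of the 5p arms had a letter pattern in common. A seed starting with GGU was present in 14 of the 36 5p members, or 38.9%, against 10 of the 633 other 5p miRNAs of the table, or 1.58%, and in 0 of the 34 3p members. Several members are so alike that reads could be divided between them in mapping. Between miR-376b-5p and miR-376c-5p 1 of 22 positions differs, between miR-379-3p and miR-411-3p 2 of 22, between miR-300-3p and miR-381-3p 3 of 22, and between miR-376a-3p and miR-376b-3p 3 of 21. Both arms of miR-299b are contained in those of miR-299a, so the levels within each of these pairs are uncertain.

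Levels are given as CPM, the count of a miRNA scaled to a common library total of reads on mature miRNAs (counts per 1000000). Totals ranged from 14802675 to 59362011 reads, so that 3 reads, the upper limit that a count of 0 allows, correspond to 0.0505 to 0.203 CPM. Such limits cover counting error only, because reads copied by PCR are not separate molecules. Between 660 and 915 miRNAs had a read in each library. Female library 2 had the most reads and the fewest miRNAs detected, also within the cluster, where it had 60 members against 64 to 70 in the other libraries. There were 58 members with reads in every library.

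The cluster made up 3.81% of all reads. Its share was 3.52%, 3.56% and 4.11% in female libraries 1 to 3 and 3.99%, 3.91% and 3.87% in male libraries 1 to 3. Females had a mean of 3.73% ± 0.327 (SD, n = 3) and males one of 3.92% ± 0.0597 (SD, n = 3), and the male values lay within the range of the female ones. With TMM scaling the order of the means turned, to 3.9% in females and 3.76% in males.

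The members spanned the whole range from 4844 CPM to none. The mean over the 6 libraries was at least 1000 CPM for 11 members, at least 100 CPM for 34, at least 10 CPM for 53 and at least 1 CPM for 66. A further 5 members had reads but less than 1 CPM, and miR-496b, miR-539-3p, miR-654-5p and miR-654-3p had 0 reads in every library. The 10 most abundant members held 74.2% of the cluster's level and the top 20 held 90%. Members above 1000 CPM occurred at the start of the cluster (miR-379, miR-411, miR-323), further along it (miR-543, miR-487b, miR-382, miR-485) and at its end (miR-541, miR-409, miR-369, miR-410).

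**Figure D1:**
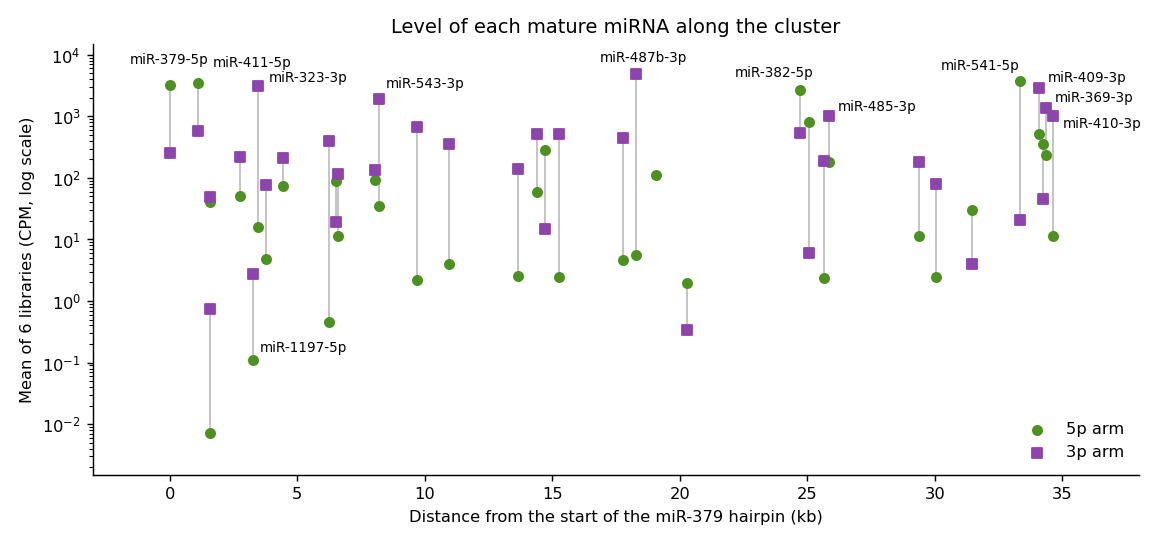
Mean level over the 6 libraries (CPM, log scale) of each mature miRNA with reads, against the distance of its hairpin from the start of the miR-379 hairpin in kb. Circles are 5p arms, squares are 3p arms and grey lines join the arms of a hairpin, and the 11 members above 1000 CPM are spread over the 34.7 kb.

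The most abundant member was miR-487b-3p, with 4573, 4712 and 4460 CPM in the female libraries and 4717, 5610 and 4991 CPM in the male ones. Next was miR-541-5p, with 3150, 4297 and 2799 CPM in females and 4051, 4307 and 4294 CPM in males. Every library of miR-487b-3p was above every library of miR-541-5p. The sexes overlapped for miR-541-5p. For miR-487b-3p they were separated narrowly in CPM, by female library 2 and male library 1, and overlapped in TMM-scaled values. The next in order of mean level were miR-411-5p (3504 CPM), miR-379-5p (3204 CPM), miR-323-3p (3120 CPM), miR-409-3p (2916 CPM) and miR-382-5p (2684 CPM). These 5 neighbours in the order did not separate, since each overlapped the next over the 6 libraries. Below them was miR-543-3p (1911 CPM), which in mouse cortex is known to act on N-cadherin together with miR-369-3p and miR-496. Then came miR-369-3p (1387 CPM) and miR-410-3p (1020 CPM), and each of these 3 also overlapped the one before it over the 6 libraries. Within every single library, however, miR-382-5p was above miR-543-3p and miR-369-3p above miR-410-3p.

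Of the members chosen for known roles in neurons, miR-541-5p, miR-379-5p and miR-410-3p were among the 10 most abundant. The others lay lower in the order. miR-134-5p, which limits the size of dendritic spines, was at 630.2, 546.1 and 777.7 CPM in females and 1307, 841.7 and 823.8 CPM in males. miR-485-5p, known to act at synapses, had a mean of 184.7 CPM, and miR-329-3p and miR-381-3p, which take part in activity-dependent dendrite growth with miR-134, had means of 214.0 and 443.1 CPM. miR-495-3p had a mean of 660.1 CPM. None of these 5 passed the test between the sexes described next, whereas miR-485-3p and miR-369-3p did. Over the 6 libraries, the members whose log2 level was most like that of miR-487b-3p were miR-412-5p (Pearson's r = 0.835), miR-299a-3p (r = 0.821) and miR-412-3p (r = 0.819), a description over 6 libraries that differ in depth.

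Between the sexes, arms of miR-369, miR-376a, miR-376b, miR-376c, miR-382 and miR-154 were lower in males, an arm of miR-485 was higher, and the median member had a fold change near none. Of the 70 members whose reads came to 10 or more in all, 8 passed an adjusted p of 0.05 (edgeR's quasi-likelihood test, Benjamini-Hochberg adjustment over all 1120 miRNAs tested). This is 11.4% of the members, where 8.48% of all miRNAs tested passed. Lower in males were 7, against 5.27% of all miRNAs, and higher was 1, against 3.21% of all miRNAs. The median log2 fold change, male over female, was 0.03 over the members and -0.02 over all miRNAs tested, with 36 members above 0 and 34 below. The sexes did not overlap in 23 of the 70 members in TMM-scaled values, 11 lower and 12 higher in males, or 32.9%, where 23.8% of all miRNAs did not overlap. The 5 members not tested were miR-299b-5p, with 1 read, and the 4 at 0.

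The 5p arm of miR-369 differed most among the called members. miR-369-5p was at 213.3, 318.3 and 536.7 CPM in the female libraries and 159.1, 115.8 and 95.0 CPM in the male ones, 3.19-fold lower in males after scaling (log2 fold change -1.67, SE 0.27, edgeR adjusted p = 9.6e-05). Every female library was above every male one, and the female libraries varied more among themselves than the male ones. The other arm, miR-369-3p, was at 1770, 1256 and 2164 CPM in females and 1084, 1025 and 1024 CPM in males (log2 fold change -0.84, SE 0.20, edgeR adjusted p = 0.00699). The 3 male libraries lay close together and below the lowest female one.

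The miR-376 hairpins stand together in the middle of the cluster, with miR-654 among them, and gave 3 of the called members. Their primary transcripts are known for editing of adenosine to inosine, which changes the seed. miR-376c-3p was at 193.7, 160.5 and 247.4 CPM in females and 78.6, 72.5 and 85.1 CPM in males, 2.77-fold lower in males (log2 fold change -1.47, SE 0.22, edgeR adjusted p = 4.2e-05). The sexes lay far apart and the male libraries close together. miR-376b-3p was at 581.246, 572.959 and 750.113 CPM in females and 369.005, 474.028 and 382.003 CPM in males (log2 fold change -0.75, SE 0.21, edgeR adjusted p = 0.0205). miR-376a-5p was at 284.3, 260.3 and 508.6 CPM in females and 220.7, 210.8 and 229.9 CPM in males (log2 fold change -0.79, SE 0.23, edgeR adjusted p = 0.0294), where female library 3 stood well above the other 2.

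The other arms of these hairpins did not pass. miR-376b-5p was at 64.2, 41.3 and 114.7 CPM in females and 53.6, 43.6 and 30.2 CPM in males, which overlap (log2 fold change -0.91, SE 0.34, edgeR adjusted p = 0.122). miR-376a-3p had 0 reads in female library 2 and 19.5 and 29.9 CPM in the other female libraries, against 17.0, 10.5 and 11.9 CPM in males. At the lowest level of the other libraries, 622 reads would have been counted in female library 2, so depth does not limit this value. miR-376c-5p had 12.3 CPM in female library 2 and at most 2.3 CPM in every other library, so that its value rests on the same library.

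miR-382-3p and miR-154-3p were also lower in males. miR-382-3p was at 664.5, 572.6 and 778.2 CPM in females and 367.0, 378.1 and 430.6 CPM in males (log2 fold change -0.90, SE 0.20, edgeR adjusted p = 0.00322). The more abundant arm of the same hairpin, miR-382-5p, had the opposite sign and did not pass (log2 fold change 0.20, SE 0.21, edgeR adjusted p = 0.644). miR-154-3p was at 223.3, 153.9 and 300.6 CPM in females and 148.5, 125.0 and 140.2 CPM in males (log2 fold change -0.83, SE 0.23, edgeR adjusted p = 0.0179). Its sexes were separated narrowly, by female library 2 and male library 1. The 5p arm of miR-154, at a mean of 11.39 CPM, did not pass.

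The single member higher in males was miR-485-3p. It was at 543.6, 957.5 and 515.2 CPM in females and 1341, 1422 and 1250 CPM in males (log2 fold change 0.84, SE 0.24, edgeR adjusted p = 0.0237). Female library 2 was the closest to the males. Its partner miR-485-5p was at 145.8, 171.4 and 103.1 CPM in females and 214.0, 269.5 and 204.4 CPM in males, with the same sign (log2 fold change 0.58, SE 0.24, edgeR adjusted p = 0.164).

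**Figure D2:**
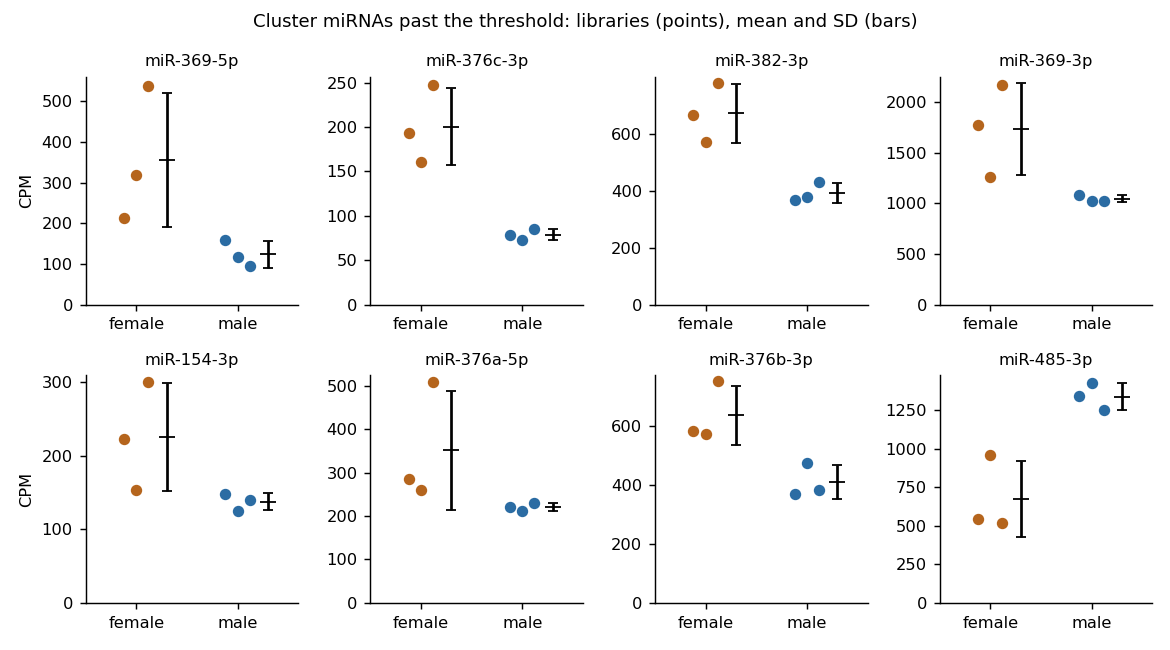
Level in CPM of the 8 cluster miRNAs past an adjusted p of 0.05, with 1 point per library and bars for the mean and SD of 3 libraries. In each panel the 3 female and the 3 male libraries do not overlap, and female library 3, the right-hand female point, is the highest in the 7 panels that are lower in males.

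Of the members that did not pass, miR-379-3p was the nearest to the threshold. It was at 168.6, 186.9 and 202.4 CPM in females and 325.8, 309.1 and 317.2 CPM in males (log2 fold change 0.64, SE 0.20, edgeR adjusted p = 0.0505). It passed in 10 of 18 settings, and did not with the replicate block (adjusted p = 0.0578) or in 5 of the 6 fits that leave out 1 library. Next by p-value were miR-541-3p (log2 fold change -1.19, SE 0.42, edgeR adjusted p = 0.0984), miR-667-3p (0.62, SE 0.22, adjusted p = 0.101) and miR-376b-5p. The fifth was miR-543-3p, at 1501, 1522 and 1485 CPM in females and 2341, 2317 and 2298 CPM in males (log2 fold change 0.50, SE 0.19, edgeR adjusted p = 0.14). Its means were 1503 ± 18.3 CPM (SD, n = 3) and 2318 ± 21.6 CPM (SD, n = 3), so the gap between the sexes was far wider than the spread within either. It passed in 6 of 18 settings, among them library size only and DESeq2 (adjusted p = 0.031 and 0.0114), and did not with DESeq2 size factors in edgeR, upper quartile scaling or the GC offset (adjusted p = 0.086, 0.166 and 0.133). In all, 22 of the 70 members had an unadjusted p under 0.05, against 206 of the 1120 miRNAs tested.

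**Figure D3:**
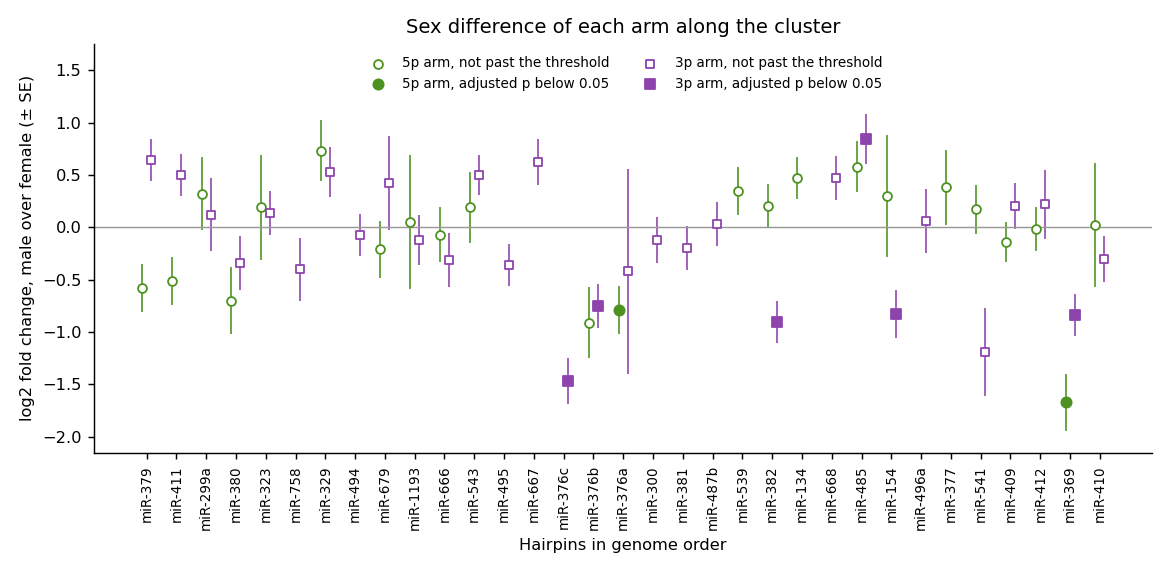
Log2 fold change, male over female, with its SE from edgeR, for members with a mean of at least 10 CPM, by hairpin in genome order, with circles for 5p and squares for 3p arms and filled symbols for an adjusted p below 0.05. The values go both ways along the cluster, with miR-369-5p at -1.67 and miR-485-3p at 0.84 the lowest and highest of the filled symbols.

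Arms of one hairpin come from one transcript in one library, so their ratio does not depend on the scaling between libraries. Both arms were tested for 34 cluster hairpins. The 3p arm was the more abundant in 24 and the 5p arm in 10. The difference ran from 1.19-fold for miR-299a to 871-fold for miR-487b and miR-494, and was over 10-fold in 19. The 5p arm of miR-494 had only 92 reads in all, with 0 in female libraries 1 and 2 and male library 1. The same arm led in every library in 30 hairpins, and the exceptions were miR-299a, miR-666, miR-544 and miR-1197. For miR-1197 neither arm led in female library 2, where both had 0 reads, and the 3p arm led in every other library. In 16 of the 34 hairpins the 2 arms had log2 fold changes of opposite sign.

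No arm ratio passed between the sexes. With limma on the log2 of the 3p over the 5p arm, 0 of 34 cluster hairpins passed, where 0% of the 364 hairpins tested passed, and the lowest adjusted p in the cluster was 0.55. An unadjusted p under 0.05 was found for 3 of the 34 and 27 of the 364. The sexes did not overlap in 8 of the 34, where 17.9% of all hairpins tested did not overlap. For miR-541 the log2 ratio was -7.14, -6.86 and -6.73 in females and -8.61, -8.04 and -8.23 in males, a difference of -1.38 (SE 0.40, limma adjusted p = 0.55). For miR-379 it was -4.08, -3.98 and -4.72 in females and -3.14, -3.05 and -3.07 in males, a difference of 1.17 (SE 0.41, limma adjusted p = 0.55). For miR-382 it was -1.88, -2.25 and -1.31 in females and -3.06, -3.03 and -2.73 in males, a difference of -1.12 (SE 0.44, limma adjusted p = 0.55). In these 3 hairpins, picked for the smallest p, the female ratios were the higher for miR-541 and miR-382 and the lower for miR-379, without overlap. None of the 3 passed, so the values describe these libraries only.

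miR-411 lies next to miR-379 and shares its 3p seed. Its log2 ratio was -3.13, -2.63 and -3.45 in females and -2.43, -1.82 and -1.99 in males, also without overlap, a difference of 0.99 (SE 0.44, limma adjusted p = 0.55). In both hairpins the 5p arm was the lower in males in log2 fold change (-0.58 for miR-379-5p and -0.51 for miR-411-5p, edgeR adjusted p = 0.142 and 0.204) and the 3p arm the higher (0.64 and 0.50, edgeR adjusted p = 0.0505 and 0.141). None of these 4 passed. The 3p arms of the 2 hairpins differ at 2 positions, and whether reads were divided between them in mapping was not tested.

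**Figure D4:**
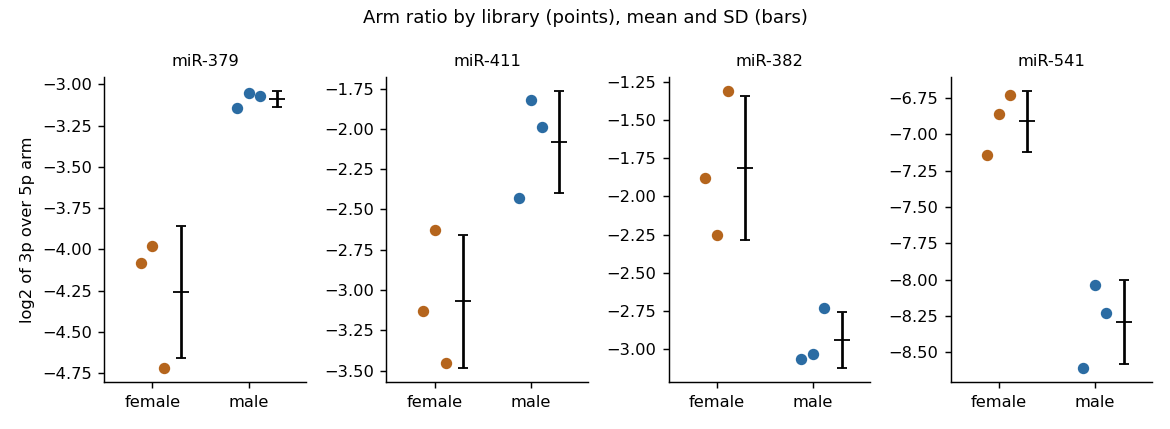
Log2 ratio of the 3p over the 5p arm in each library for miR-379, miR-411, miR-382 and miR-541, with 1 point per library and bars for the mean and SD of 3 libraries on axes that differ between panels. In all 4 hairpins the sexes do not overlap, and no ratio passed an adjusted p of 0.05.

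The GC content of the mature sequence moved with the difference between the sexes. Over the 57 members with a sequence and a mean of at least 100 reads, Pearson's r of the log2 fold change with the GC percent was 0.429, and over 417 other miRNAs it was 0.305. Over all 67 tested members with a sequence r was 0.221. These are descriptions across miRNAs that share the same 6 libraries. Below 40% GC, the 11 members had a median log2 fold change of -0.83, with 4 called lower in males. The 73 other miRNAs there had a median of -0.82, with 24 called lower and 3 higher. From 40% to below 50% GC, the medians were -0.07 over 23 members, with 2 called lower, and -0.27 over 137 others, with 17 called lower and 8 higher. At 50% GC or more, they were 0.20 over 23 members, with miR-485-3p the 1 called, and 0.16 over 207 others, with 18 called higher and 3 lower.

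When each library's counts were offset by a curve fitted on GC content, 3 of the 67 members that could be fitted passed, where 6.41% of all miRNAs fitted passed. They were miR-369-5p, lower in males (log2 fold change -1.59, edgeR adjusted p = 2.1e-05), and miR-379-3p (1.05, adjusted p = 0.00262) and miR-329-3p (0.81, adjusted p = 0.0195), higher in males. miR-369-3p, at 23.8% GC the lowest of the called members with a sequence, went to 0.13 (edgeR adjusted p = 0.866). miR-382-3p, miR-154-3p, miR-376a-5p and miR-376b-3p had log2 fold changes of -0.44, -0.31, -0.47 and -0.38 under this offset and miR-485-3p 0.55, and none of these 5 passed. miR-376c-3p could not be fitted, for want of a sequence in the table.

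**Figure D5:**
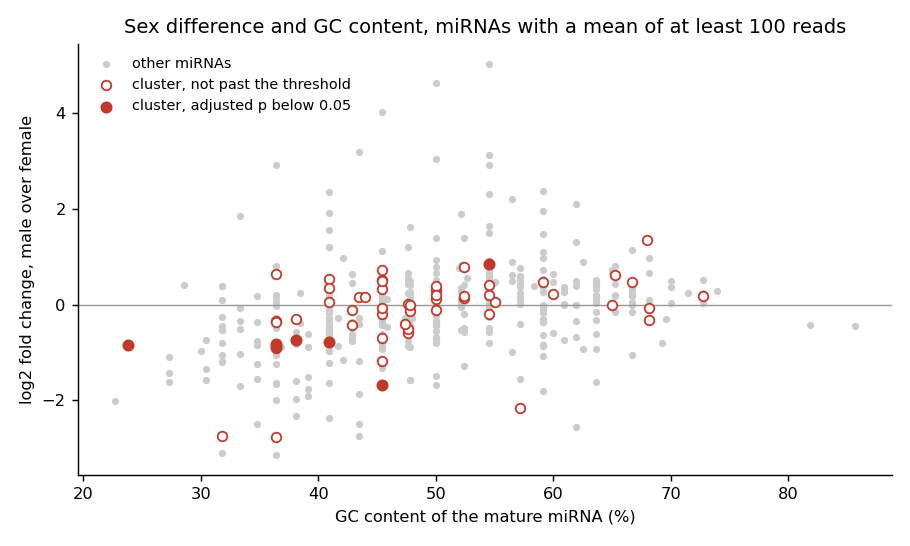
Log2 fold change, male over female, against the GC percent of the mature sequence for miRNAs with a sequence and a mean of at least 100 reads, with grey points for the 417 other miRNAs and red circles for the 57 cluster members, filled where the adjusted p was below 0.05. Members and other miRNAs both tend from below 0 at low GC to above 0 at high GC.

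Several calls were lost when 1 library was left out. Without male library 1, 2 of the 70 members passed, where 2.73% of all miRNAs did, and these were miR-369-5p and miR-376c-3p. Without female library 3, 4 of 69 passed, where 60 of 1060 miRNAs did. Without female library 2, 22 passed, where 18.3% of all miRNAs did. miR-369-5p and miR-376c-3p passed whichever library was left out, and miR-382-3p and miR-369-3p in all cases but 1, that without male library 1 (edgeR adjusted p = 0.0955 and 0.136). miR-376a-5p was lost without female library 3 or male library 1 (edgeR adjusted p = 0.22 and 0.319). miR-376b-3p and miR-154-3p were lost without either of these (adjusted p = 0.0971 and 0.284 for miR-376b-3p, 0.115 and 0.218 for miR-154-3p) and without male library 3 (0.107 and 0.0507). miR-485-3p was lost without female library 1, female library 3 or male library 1 (edgeR adjusted p = 0.051, 0.188 and 0.227). Without male library 1 the log2 fold changes stayed near those of all 6 libraries, at -0.79 for miR-382-3p, -0.81 for miR-369-3p, -0.73 for miR-376a-5p, -0.62 for miR-376b-3p, -0.82 for miR-154-3p and 0.91 for miR-485-3p. Without female library 3 they were -0.45 for miR-376a-5p, -0.63 for miR-376b-3p, -0.59 for miR-154-3p and 0.66 for miR-485-3p.

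The balance of directions moved with library size in place of TMM, and little with the other scalings. DESeq2 size factors in edgeR and upper quartile scaling each called 7 members lower and 2 higher in males, with all 8 TMM calls kept. Of the 1120 miRNAs tested, 92 and 91 passed in these fits. With library size, 4 of the 8 members called were lower and 4 higher in males, 5 of them shared with the TMM result. There 89 of the 1120 miRNAs passed, and the median log2 fold change of all miRNAs tested went from -0.02 to 0.11. miR-154-3p, miR-376a-5p and miR-376b-3p were the 3 lost (log2 fold changes -0.71, -0.67 and -0.64).

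Markers of other tissues, of hindbrain and spinal cord and of brain also moved with sex. The 5 skeletal muscle miRNAs summed to 391.6 to 1191 CPM in females and 5526 to 6154 CPM in males, with 5 of 5 called higher in males, and the 6 epithelial miRNAs to 428.5 to 1133 CPM and 7990 to 8284 CPM, with 5 called higher. The 7 mesenchymal miRNAs summed to 8321 to 16820 CPM in females and 22490 to 26360 CPM in males, with 4 called higher. The 3 miRNAs of red blood cells summed to 646.2 to 1354 CPM in females and 1595 to 1972 CPM in males, with 1 called higher. In that list miR-451a and miR-144-3p were not called, at log2 fold changes of 0.181 and -0.966. The 5 miRNAs of hindbrain and spinal cord summed to less in males, at 8928 to 12710 CPM in females and 1761 to 2178 CPM in males, with 3 called lower. The 8 brain miRNAs summed to 230900 to 274500 CPM in females and 185200 to 213800 CPM in males, with 4 called lower. No marker of these lists was at 0 in all libraries. The part of these differences in those of the cluster was not tested, and in whole tissue fewer cells of a type and less RNA per cell cannot be told apart.

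The other miRNAs of the domain gave the following counts beside the cluster's 8 of 70. Of all miRNAs tested 8.48% passed, 5.27% lower and 3.21% higher in males, and the sets below are small. Of the miRNAs grouped by number as anti-Rtl1, a set that also held miR-341 and miR-370, 3 of 22 tested passed. They were miR-136-5p (log2 fold change -2.0, SE 0.40) and miR-136-3p (-0.96, SE 0.25), lower in males, and miR-337-5p (0.75, SE 0.19), higher. The median of this set was 0.31. Of those grouped by number as the Meg3 and Rian region, 2 of 6 tested passed, both higher in males, miR-493-5p (0.98, SE 0.21) and miR-673-5p (1.09, SE 0.21). The positions of these miRNAs were not checked. Of the 4 tested arms of miR-1188 and miR-3072, which the name rule leaves out, 0 passed and 0 had an unadjusted p under 0.05 by edgeR, and 0 passed in DESeq2.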

How the data were processed

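Small RNA libraries were counted in 6 samples, 3 per sex. The authors trimmed reads with cutadapt 1.15, mapped them with Bowtie 1.2.1 and counted known miRNAs with miRDeep2 from miRBase and mm9, and deposited the raw count of reads per mature miRNA, not normalized. Members, lists and the rule for named miRNAs were chosen with earlier results of these data known. The miRNAs named were those past the threshold and their other arms, the 10 most abundant, the 5 with the smallest p of the rest, the arms of the 3 hairpins with the smallest ratio p, those with known neuronal roles, those sharing a seed and those at 0.

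miRNAs with under 10 reads in all were left out. Counts were scaled by TMM and tested for sex with edgeR 4.0.16 in R 4.3.3 (quasi-likelihood, threshold 0.05). Arm ratios used limma 3.58.1 with a prior count of 2. Alternatives were other scalings, DESeq2 1.42.0, 1 RUVr factor (the study used RUVr with DESeq2), other filters, a replicate block, a loess GC offset (span 0.75) and each library left out. p-values measure the spread between pools. Sequences came from RefSeq, positions from matching them to mm9. The procedures were tested on simulated data.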

Additional observations from a re-analysis of the deposited data

How the results depend on the processing

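The number of members past the threshold was 8 with TMM and edgeR. It was 13 with DESeq2 (8 lower and 5 higher in males), 22 with 1 RUVr factor in DESeq2 (12 lower, 10 higher), 3 with the GC offset and 4 with the GC offset and the replicate block, where 132, 225, 61 and 68 of all miRNAs passed against 95, and it ranged from 2 to 22 when 1 library was left out. The GC offset was fitted to fewer miRNAs, 951 in place of 1120. The cause of the changes in number, that under the GC offset included, was not tested. The remaining alternatives gave 8 to 11 members. With RUVr in edgeR, 3 of 11 were higher in males, where 137 of 1120 miRNAs passed. With no filter, 4 of 10 were higher, where 104 of 1163 passed. With at least 10 reads in every library, 8 of 58 members passed, 0 of them higher, where 97 of 550 miRNAs passed. Under that filter miR-485-3p lost its call (0.78, edgeR adjusted p = 0.0871). RUVr moved the median of all miRNAs to 0.21 (edgeR) and 0.24 (DESeq2). Arm ratios gave 0 cluster hairpins under every alternative run. The cluster's share became 4.59% in females and 4.66% in males without miR-9-5p in the total, by construction, and 3.9% in females and 3.76% in males with TMM scaling, which turns the order of the sexes. Over the fits of 29 named members, 400 kept direction and side of the threshold, 27 lost the call, 39 gained it and 19 changed sign.

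Signs changed for 8 members. With the GC offset, and with it and the replicate block, the log2 fold changes were 0.13 and 0.23 for miR-369-3p, -0.13 and -0.12 for miR-323-3p, -0.10 and -0.09 for miR-409-3p, 0.18 and 0.18 for miR-410-3p, and 0.11 and 0.13 for miR-495-3p. miR-376a-3p, at 0 in female library 2, went to 1.25 and 1.5 with RUVr in edgeR and DESeq2, 0.72 with the replicate block, 1.11 with GC offset and block and 0.37 without female library 3, and to -1.01 at the other end, without female library 2. miR-376c-5p went to 0.67 without female library 2 and to -10.36 without male library 3. miR-487b-3p, near 0 throughout, went to -0.02 with at least 10 reads in every library, -0.00 without female library 3 and -0.10 without male library 2, with 0.15 as the highest value without 1 library.

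Deviations of same-numbered libraries from their group means correlated at -0.0801, 0.0289 and 0.158. Those of libraries with unlike numbers correlated at -0.183 to 0.155. With 3 libraries per sex these values cannot decide whether the replicate numbers pair the libraries. The replicate block gave 8 members, the same 8, and 92 of all miRNAs. Female library 1, at 14802675 reads, sets the depth limit for the rarest members.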

Other observations

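Some low members rest on 1 library. miR-758-5p was at 19.6 CPM in female library 2 and at most 2.7 CPM in every other library, and miR-376c-5p was at 12.3 CPM there and at most 2.3 CPM elsewhere. The same library had 0 reads of miR-667-5p, which had 3.04 to 5.99 CPM in the other 5, and of miR-496a-5p, miR-1197-3p and miR-544-5p. At the lowest level of the other libraries, 180 reads of miR-667-5p and 70 of miR-496a-5p would have been counted in it. Male library 2 had 0 reads of miR-300-5p, for which 36 would have been counted. No explanation was tested for these values.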
